A study of Mus musculus with 12 samples.

Results

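Antibody genes were followed in lineage-depleted bone marrow of mice with and without the transcription factor E4bp4, also called Nfil3. The members were chosen by name: each row of the deposited expression table with an annotated symbol of an immunoglobulin heavy (Igh), kappa (Igk) or lambda (Igl) variable, joining or constant segment was taken, and Ighmbp2, a helicase gene with a similar symbol, was left out. This gave 31 rows of 34760, and all 31 were bright enough on at least 1 array to be tested, beside 29541 transcript clusters in all. A transcript cluster is the set of array probes that is summarised as 1 value, and its level is given here on a log2 scale, so that a difference of 1 is a 2-fold change of signal.

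The 12 arrays came from 6 mice of genotype E4bp4-/- (knockout) and 6 of genotype E4bp4+/+ (wild type), per the design text. Marrow of the hind legs was depleted magnetically of cells that bear the NK cell marker NK1.1, CD2, the B cell form of CD45 (B220), the myeloid markers CD11b and GR1, or the erythroid marker Ter119, and total RNA of the remaining cells was labelled and hybridised to GeneChip Mouse Gene ST arrays. No treatment was given to either group in the labels, and age, sex, strain and the deleted part of the gene are not given in the sources used here. The comparison of genotypes was made to find candidate target genes of the factor. Precision is limited by the 6 arrays of each genotype.

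Immunoglobulin genes are assembled in developing B cells: a variable segment is joined to a joining segment, with a diversity segment between them in the heavy chain, and the assembled exon is spliced to a constant region. Each B cell and its descendants therefore transcribe a few chosen variable segments, and plasma cells, the antibody-secreting end of the lineage, hold very large amounts of these transcripts. Mature B cells carry B220, which the depletion targets, whereas plasma cells carry little of it. E4bp4 is known in B cells for its part in class switching to IgE, but no row of the annotation named Ighe, Ighd, Ighg1, Ighg2b, Ighg2c, Iglc2 or Iglc3, so these constant regions were not analysed here.

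The 31 rows were less specific than their names. Only 15 named 1 gene and 16 named several, and together they named 30 immunoglobulin segments, of which RefSeq (GRCm38.p6) lists 22 as functional V segments, 5 as C regions and 1 as a J segment. Ighv1-33 and Igkv4-77 are listed there as V segment pseudogenes. RefSeq holds 225 functional immunoglobulin V segments, so most of the repertoire was not represented by name. In 19 of the 31 rows the annotation listed a sequence record that another member also listed, and these fell into 7 linked groups of up to 7 rows. The rows are therefore not independent measurements, and a row with several symbols is named below by those symbols and its identifier. In addition, 2 rows carried the name of Map3k20, a protein kinase, beside kappa segments.

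The arrays had median levels of 6.50 to 6.62 over all transcript clusters, and correlations between arrays lay between 0.986 and 0.995. The targeted gene, Nfil3, averaged 6.49 ± 0.23 (SD) on the 6 knockout arrays and 7.18 ± 0.25 on the 6 wild type arrays (limma adjusted p = 0.140). The genotypes did not overlap, but knockout replicate 2, at 6.92, lay just below wild type replicate 5, at 6.94. Knockout replicate 1 stood apart in genes outside the antibody loci: its Xist level was 6.08 against at least 12.10 elsewhere, its Y-linked Eif2s3y was at 7.37 against at most 4.13, and the mean of 12 neutrophil genes was 10.54 against at most 9.24 on the other knockout arrays. Differences of antibody rows that this array or wild type replicate 5, the lowest array in most of these rows, moves most are given with and without it.

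Antibody rows gave bright signals in this fraction and differed widely between mice. The mean signal of a row over the 12 arrays ran from 5.71 (Igkv5-43) to 10.55 (the row 10545198, which names Igkc and 7 variable segments), and the highest single value was 12.91. The median of the 31 rows was 9.38, 8.22, 9.41, 8.52, 8.77 and 8.27 on knockout replicates 1 to 6, and 8.92, 8.72, 8.81, 8.12, 7.39 and 7.73 on wild type replicates 1 to 6. The genotypes overlapped in this median. Wild type replicates 4, 5 and 6 lay below every knockout array, and wild type replicates 1 to 3 lay within the knockout range. From the lowest to the highest array the median spanned a 4.04-fold range of signal. In bulk samples of this kind, fewer cells of a type and less RNA per cell cannot be told apart.

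**Figure D1:**
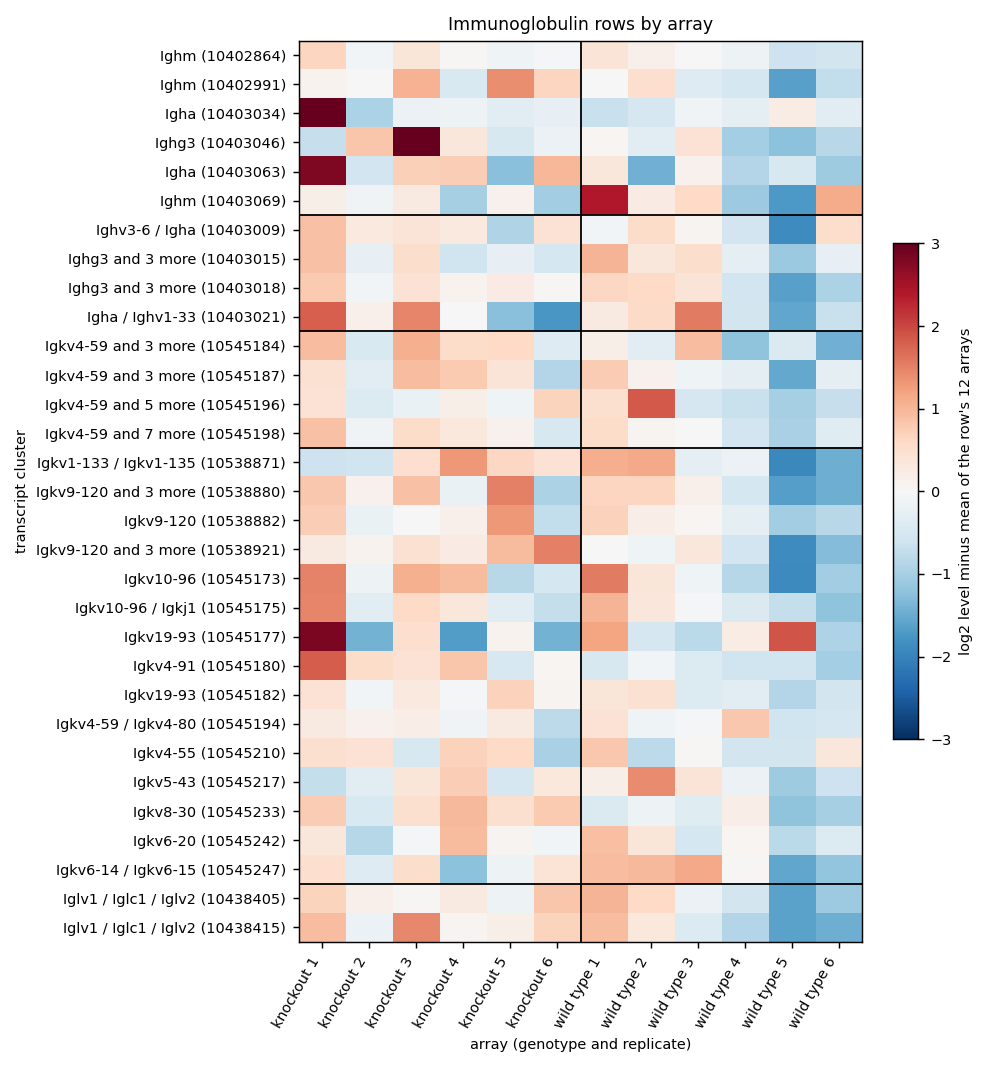
Each line is 1 of the 31 immunoglobulin rows and each column 1 array, coloured by the log2 level minus the mean of that row over the 12 arrays; the colour scale ends at 3 in either direction. Wild type replicate 5 is below the row mean in all but 2 rows and knockout replicate 1 above it in 28, while Igha, Ighg3 and Igkv19-93 each show a value far from the rest of their row on 1 or 2 arrays.

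Single arrays held many of the lowest and highest values of the rows. Wild type replicate 5 was the lowest of all 12 arrays in 21 of the 31 rows, whereas over all transcript clusters tested it was the lowest in 5.80%. It was among the 3 lowest in 27 rows and wild type replicate 6 in 21 rows, and they exceeded the row mean in 2 and 3 rows. At the other end, knockout replicate 1 was the highest array in 10 rows, against 14.8% of all transcript clusters, and was among the 3 highest in 20. Wild type replicate 1 was among the 3 highest in 18 rows, so high antibody signal was found in both genotypes. Quantile normalisation and centring of the arrays on their medians left 21 and 10 as they were.

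Between genotypes, most rows had a higher mean in the knockout, but no row passed the test. The difference, knockout minus wild type, was above 0 in 26 of 31 rows, against 55.9% of all transcript clusters; with arrays centred on their medians it was 25 of 31, against 40.4%. The median difference was 0.45 log2, against 0.02 over all transcript clusters. In limma, adjusted by Benjamini-Hochberg over all 29541 transcript clusters, 0 of 31 rows passed an adjusted p of 0.05, as did 0% of all transcript clusters, and the smallest adjusted p of a member was 0.184. The unadjusted p was under 0.05 in 5 members, all higher in the knockout, or 16.1% of them; the share of all transcript clusters was 14.9% in either direction, 8.47% for those higher and 6.39% for those lower. The genotypes did not overlap in 0 of 31 rows, against 1.27% of all transcript clusters, or 0.619% without overlap and higher in the knockout. The 16.1% stands near the 14.9% of all transcript clusters, so the unadjusted count is not a result about antibody genes.

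The size of the median difference rested in part on wild type replicate 5. Without it the median was 0.24 log2, with 22 of 31 rows higher and 3 at an unadjusted p under 0.05. Without knockout replicate 1 the median was 0.33, with 24 rows higher. Without wild type replicate 1 it was 0.59, with 28 rows higher and 8 at an unadjusted p under 0.05. Leaving out knockout replicate 3 or wild type replicate 6 also gave 3 rows at that p.

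**Figure D2:**
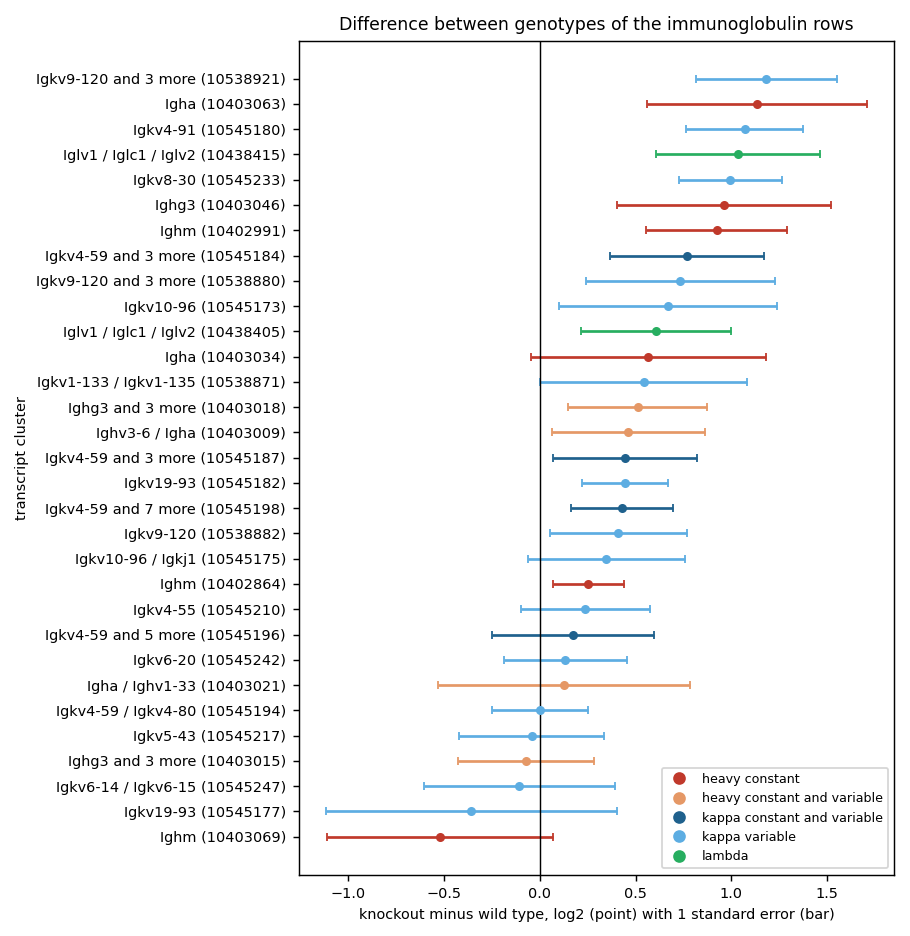
Points give the difference of each immunoglobulin row, knockout minus wild type in log2, with bars of 1 standard error from limma, coloured by the kind of segment the row names. The points run from -0.52 (Ighm, 10403069) to 1.18 (10538921), and 26 of 31 lie above 0.

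The heavy chain constant regions set the class of an antibody, and 6 rows named them alone. Ighm, the constant region of IgM and the first that a B cell uses, had 3 rows, which did not point the same way. The row 10402864 held 8.92, 8.19, 8.64, 8.31, 8.14 and 8.22 on knockout replicates 1 to 6 and 8.66, 8.43, 8.30, 8.12, 7.66 and 7.73 on wild type replicates 1 to 6. Its genotypes overlapped, wild type replicates 5 and 6 were its lowest arrays, and the difference was 0.25 ± 0.19 log2 (SE; limma adjusted p = 0.540). It was 0.15 without knockout replicate 1 and also 0.15 without wild type replicate 5. It was also the steadiest of all 31 rows, with 1.26 log2 between its extreme arrays.

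The second Ighm row, 10402991, differed by 0.92 ± 0.37 log2, and by 0.69 without wild type replicate 5. Knockout replicates 1 to 6 were at 8.47, 8.38, 9.41, 7.90, 9.75 and 9.01, and wild type replicates 1 to 6 at 8.37, 8.86, 7.96, 7.84, 6.73 and 7.62. Knockout replicates 3, 5 and 6 exceeded every wild type array. The unadjusted p was 0.0271, the limma adjusted p 0.285 and the two-sided exact permutation p over the 12 arrays 0.0433. The third Ighm row, 10403069, had a lower mean in the knockout: 6.94 ± 0.60 (SD, n = 6) against 7.46 ± 1.50. Its wild type arrays reached from 5.48 (replicate 5) to 9.61 (replicate 1), and without wild type replicate 1 the difference of -0.52 ± 0.59 log2 (SE) became -0.092, and without wild type replicate 5 it became -0.92. It shares a sequence record with the row 10402864, which was nevertheless higher in the knockout.

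Igha, the constant region of IgA, the antibody class of mucosal secretions, had the widest range of any row. In the row 10403034 knockout replicate 1 was at 12.70, while knockout replicates 2 to 6 were at 8.18, 8.94, 8.97, 8.77 and 8.87 and wild type replicates 1 to 6 at 8.44, 8.61, 9.02, 8.82, 9.34 and 8.80. Knockout replicate 1 thus lay 3.36 log2 above the next array, and the other knockout arrays did not stand apart from the wild type. The difference was 0.57 ± 0.61 log2 (SE) with this array and -0.092 without it. In the second row, 10403063, which shares 7 sequence records with the first, knockout replicate 1 was again highest, at 11.38, and the next array, knockout replicate 6, was at 9.57. Its difference was 1.14 ± 0.57 log2 (limma adjusted p = 0.376), and 0.69 without knockout replicate 1.

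Ighg3, the constant region of IgG3, an IgG made largely against carbohydrate antigens, showed the same kind of pattern on another array. Knockout replicate 3 was at 9.05, and the next highest were knockout replicate 2 at 6.83 and wild type replicate 3 at 6.44; the other knockout arrays held 5.30, 6.33, 5.52 and 5.82. Wild type replicate 5, at 4.76, was below the 20th percentile of its array. The difference of 0.96 ± 0.56 log2 was 0.45 without knockout replicate 3. The array that was highest in Ighg3 was therefore not the one that was highest in Igha, and knockout replicate 1 had the lowest Ighg3 level of the knockout arrays.

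**Figure D3:**
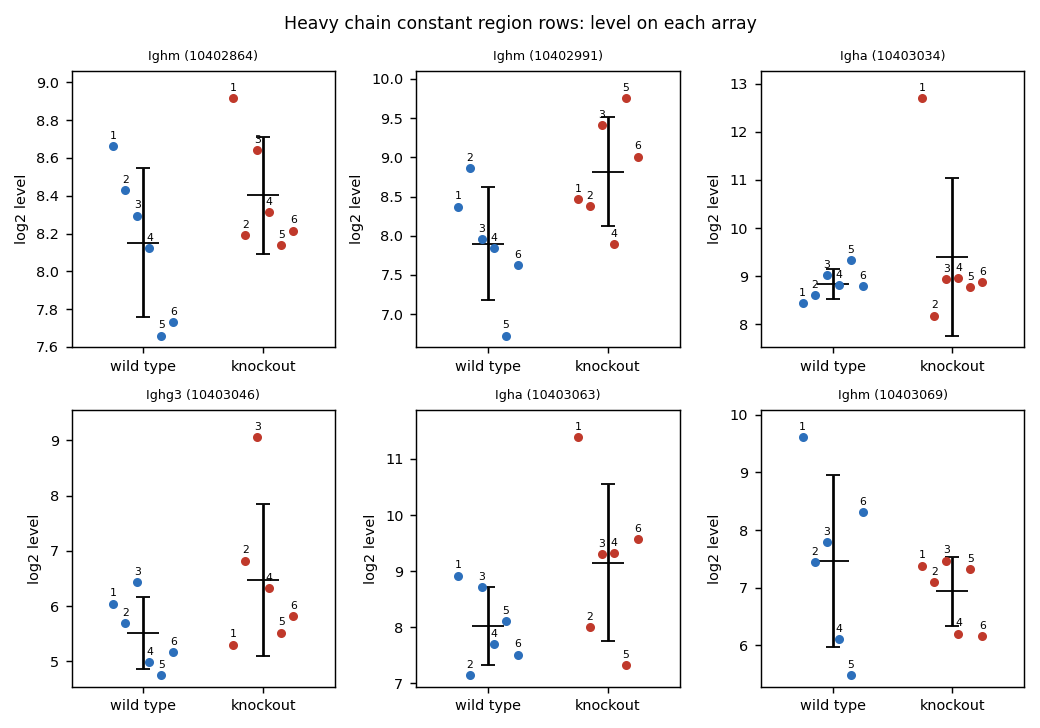
Panels give the log2 level of the 6 rows that name a heavy chain constant region alone; points are arrays with their replicate number, and bars give the mean and SD of 6 arrays. Knockout replicate 1 stands above the others in both Igha panels (12.70 and 11.38), knockout replicate 3 in Ighg3 (9.05) and wild type replicate 1 in the Ighm row 10403069 (9.61).

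Heavy chain variable segments, among them the pseudogene Ighv1-33, appeared in 4 rows, each of which also named Igha, and in 2 of them Ighg3. Their median difference was 0.29 log2, with 3 of 4 higher in the knockout, and leaving out 1 array at a time gave -0.022 (without wild type replicate 5) to 0.49, with 0.056 without knockout replicate 1. The row 10403018, which names Ighg3, Igha, Ighv1-33 and Ighv1-26, averaged 10.46 ± 0.32 (SD, n = 6) on knockout arrays and 9.94 ± 0.94 on wild type arrays. Its knockout arrays kept between 10.11 and 10.99, whereas the wild type reached from 8.58 (replicate 5) to 10.83 (replicate 1), and the difference of 0.51 ± 0.36 log2 was 0.24 without wild type replicate 5. The row 10403015, which names the same 4 symbols and shares 9 sequence records with it, differed by -0.07 ± 0.35 log2 (SE), with -0.26 without knockout replicate 1 and -0.30 without wild type replicate 5. Igha/Ighv1-33 differed by 0.13 ± 0.66 log2, with knockout arrays from 6.50 to 10.04 and wild type arrays from 6.68 to 9.81, and was at -0.22 and -0.17 without the same arrays. Ighv3-6/Igha differed by 0.46 ± 0.40 log2, and there wild type replicate 5, at 4.60, was below its array's 20th percentile; without that array the difference was 0.13.

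Kappa is the light chain of most mouse antibodies, and Igkc is its only constant region. All 4 rows that named Igkc also named variable segments of the Igkv4 family, and all 4 had a positive difference, from 0.18 to 0.77 log2 with a median of 0.44. The brightest of the 31 rows, 10545198, held 11.42, 10.44, 11.11, 10.87, 10.67 and 10.06 on knockout replicates 1 to 6 and 11.11, 10.64, 10.54, 9.98, 9.58 and 10.18 on wild type replicates 1 to 6. The genotypes overlapped: knockout replicate 6 lay below wild type replicates 1, 2, 3 and 6, and the difference was 0.43 ± 0.27 log2 (limma adjusted p = 0.468), or 0.28 without wild type replicate 5. The row 10545184 differed by 0.77 ± 0.40, with knockout arrays from 8.22 to 9.73 and wild type arrays from 7.22 to 9.60. The row 10545187 differed by 0.45 ± 0.38, and by 0.18 without wild type replicate 5. In the row 10545196 the highest array was a wild type one, replicate 2 at 8.72, and the difference was 0.18 ± 0.42; it was -0.0070 without wild type replicate 5 and 0.10 without knockout replicate 1.

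Kappa variable segments without Igkc made up 15 rows, of which 12 had a higher mean in the knockout, and the 3 immunoglobulin rows of lowest p were among them. Igkv8-30 was at 6.89, 5.67, 6.59, 7.09, 6.60 and 6.90 on knockout replicates 1 to 6 and at 5.68, 5.97, 5.75, 6.33, 4.91 and 5.12 on wild type replicates 1 to 6. All knockout arrays but replicate 2 exceeded every wild type array, and replicate 2 lay below 4 of them. Wild type replicate 5, at 4.91, was below the 20th percentile of its array. The difference was 1.00 ± 0.27 log2, a 1.99-fold change, with an unadjusted p of 0.00286, a limma adjusted p of 0.184 and an exact permutation p of 0.0152. It was 0.85 without wild type replicate 5 and 1.19 without knockout replicate 2.

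Igkv4-91 held 8.88, 7.63, 7.50, 7.91, 6.58 and 7.13 on knockout replicates 1 to 6 and 6.60, 6.98, 6.65, 6.47, 6.48 and 6.04 on wild type replicates 1 to 6. Knockout replicate 5 lay within the wild type range and the other knockout arrays above it. Its difference was 1.07 ± 0.31 log2 (unadjusted p = 0.00428, limma adjusted p = 0.198, exact permutation p = 0.00866), and 0.81 without knockout replicate 1.

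The largest difference of the 31 rows was that of 10538921, which names Igkv9-120, Igkv1-117, Igk-V21 and Map3k20. Knockout replicates 1 to 6 were at 10.63, 10.46, 10.82, 10.59, 11.31 and 11.86 and wild type replicates 1 to 6 at 10.33, 10.23, 10.69, 9.79, 8.48 and 9.06. Knockout replicates 3, 5 and 6 exceeded all wild type arrays, and replicates 1, 2 and 4 lay below wild type replicate 3. The difference was 1.18 ± 0.37 log2, or 2.27-fold (unadjusted p = 0.00700, limma adjusted p = 0.214, exact permutation p = 0.00866). Without wild type replicate 5 the difference was 0.93. The row 10538880, with the same 4 symbols, differed by 0.73 ± 0.49, and Igkv9-120 alone (10538882) by 0.41 ± 0.36; without wild type replicate 5 these were 0.47 and 0.24.

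Igkv19-93 alone was named by 2 rows that share a sequence record and whose differences had opposite signs. In the brighter row, 10545177, knockout replicates 1 to 6 were at 12.91, 8.66, 10.58, 8.40, 10.20 and 8.66 and wild type replicates 1 to 6 at 11.27, 9.57, 9.28, 10.31, 11.98 and 9.15. Wild type replicate 5, the lowest array in 21 of 31 rows, was here the highest wild type array, and only knockout replicate 1 exceeded it. The difference was -0.36 ± 0.76 log2, which became -0.014 without wild type replicate 5 and -0.96 without knockout replicate 1. In the dimmer row, 10545182, wild type replicate 5 was the lowest array, at 6.59, and the difference was 0.44 ± 0.22.

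**Figure D4:**
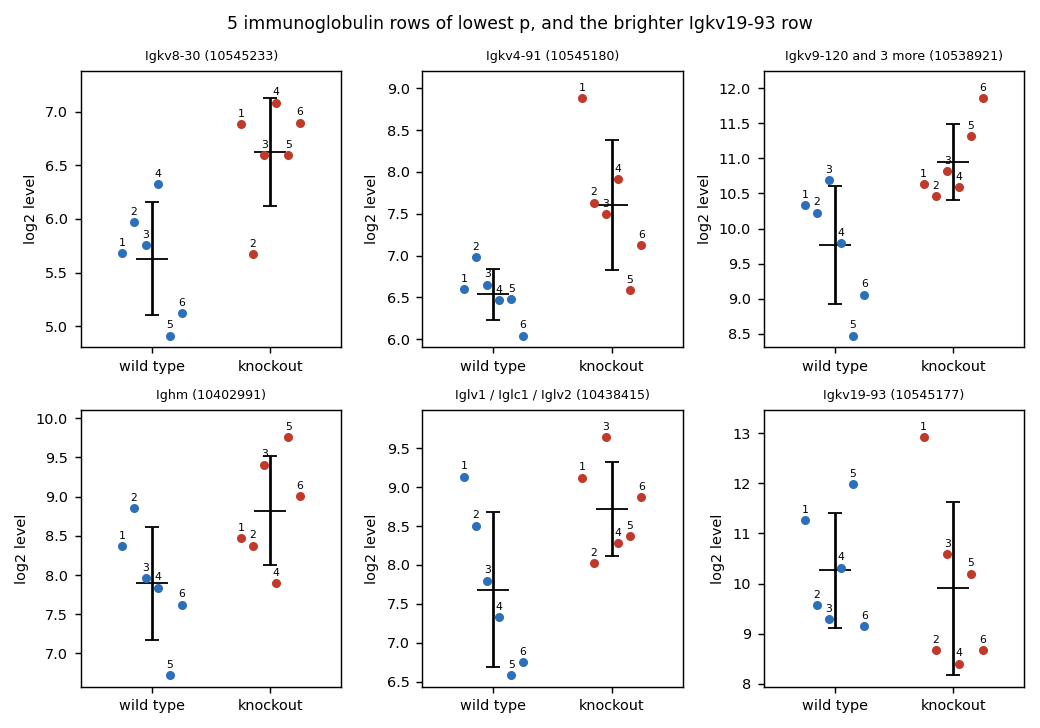
Panels give the log2 level of the 5 immunoglobulin rows of lowest p and of the brighter Igkv19-93 row; points are arrays with their replicate number, and bars give the mean and SD of 6 arrays. In Igkv8-30 the knockout mean is 6.62 and the wild type mean 5.63 with knockout replicate 2 among the wild type arrays, and in Igkv19-93 knockout replicate 1 (12.91) and wild type replicate 5 (11.98) are highest.

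The remaining kappa variable rows differed by -0.11 to 0.67 log2, and 0 of these 8 had an unadjusted p under 0.05. Igkv10-96, a bright segment at 9.87 on average, differed by 0.67 ± 0.57 log2, and its highest arrays were wild type replicate 1 (11.43) and knockout replicate 1 (11.37). Without knockout replicate 1 this difference was 0.44 and without wild type replicate 5 it was 0.36. The row of Igkv10-96 and the joining segment Igkj1, which shares 4 sequence records with it, differed by 0.35 ± 0.41, and by 0.090 without knockout replicate 1. Igkv1-133/Igkv1-135 differed by 0.54 ± 0.54, with wild type arrays from 7.53 to 10.60, and by 0.21 without wild type replicate 5. Igkv6-14/Igkv6-15, at 10.21 on average, differed by -0.11 ± 0.50; its 3 highest arrays were wild type replicates 3, 2 and 1, at 11.34, 11.19 and 11.13. Without knockout replicate 1 it was at -0.22 and without wild type replicate 5 at -0.43. Igkv4-55 differed by 0.24 ± 0.34 log2, and by 0.15 without wild type replicate 5. Igkv6-20 differed by 0.13 ± 0.32, and by 0.079 without knockout replicate 1 and -0.014 without wild type replicate 5. Igkv5-43 differed by -0.04 ± 0.38, and by 0.094 and -0.26 without the same arrays. Igkv4-59/Igkv4-80 differed by 0.0026 ± 0.25, and by -0.053 and -0.12 without them.

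Lambda, the minor light chain of the mouse, was represented by 2 rows with the symbols Iglv1, Iglc1 and Iglv2. In the row 10438415 knockout replicates 1 to 6 were at 9.12, 8.02, 9.64, 8.28, 8.37 and 8.88 and wild type replicates 1 to 6 at 9.14, 8.51, 7.80, 7.33, 6.59 and 6.75. Wild type replicates 3 to 6 lay below every knockout array and wild type replicates 1 and 2 within the knockout range. The difference was 1.03 ± 0.43 log2 (unadjusted p = 0.0323, limma adjusted p = 0.299, exact permutation p = 0.0649). The brighter row, 10438405, averaged 10.72 ± 0.38 (SD, n = 6) on knockout arrays and 10.12 ± 1.00 on wild type arrays, and differed by 0.61 ± 0.39 (SE), or 0.35 without wild type replicate 5.

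The antibody rows were also described by their spread between mice of the same genotype. The SD within a genotype, pooled over both, had a median of 0.75 log2 over the 31 rows, against 0.11 over all 29541 transcript clusters. Of the 31 rows, 25 lay in the top 1% of all transcript clusters by this SD and 30 in the top 5%. With single arrays left out the count in the top 1% was 18 to 26, the lowest without wild type replicate 5. The SD was larger in the wild type in 23 of 31 rows, against 52.0% of all transcript clusters; without wild type replicate 5 it was larger in 16 of 31 rows. No test was made of these counts. Rows of the T cell receptor loci, which are assembled by the same recombination, had a median SD of 0.11 log2 over the 26 of 39 that passed the filter on low values, and 0 of them lay in the top 1%. The median signal was 6.06 in these rows and 8.58 in the antibody rows, and the SD was not compared at matched signal.

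**Figure D5:**
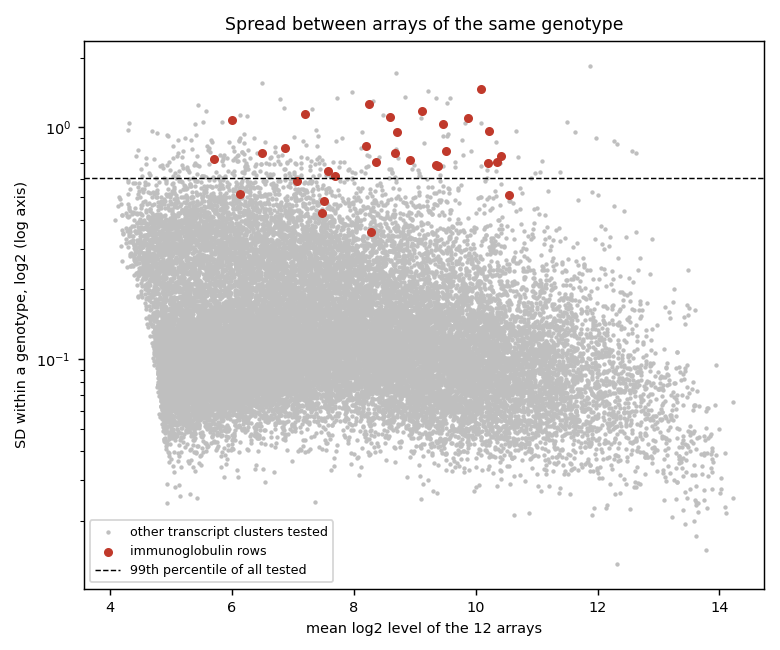
Each point is a transcript cluster, placed by its mean log2 level over 12 arrays and its SD within a genotype (log axis), and the dashed line marks the top 1% of all 29541. Of the 31 immunoglobulin rows, in red, 25 lie above the line.

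Genes of plasma cells and antibody secretion were compared next, from a list of 23. Jchain, which links IgM and IgA molecules into polymers, was low on the same wild type arrays as the antibody rows: it was at 10.48, 9.59, 10.11, 9.72, 10.52 and 10.10 on knockout replicates 1 to 6 and at 10.41, 9.77, 9.68, 9.48, 8.60 and 8.64 on wild type replicates 1 to 6. Wild type replicates 5 and 6 were lowest, as in the median of the antibody rows, and wild type replicate 1 was among the highest arrays. The highest arrays did not match: Jchain was highest on knockout replicate 5, whose antibody median was 8.77. That median was 9.38 on knockout replicate 1 and 9.41 on knockout replicate 3. The difference of Jchain was 0.66 ± 0.29 log2 (limma adjusted p = 0.326, exact permutation p = 0.0779). Over the list 20 genes were higher and 3 lower in the knockout, 9 of them at an unadjusted p under 0.05, all higher, and 0 passed the adjusted threshold; the median difference was 0.15 log2. Over all transcript clusters 55.9% were higher, 8.47% were higher and 6.39% lower at that p, and the median was 0.02, and the counts of the other lists stand beside the same shares. The lowest p-values were those of Pim2, a survival kinase (0.20 ± 0.065), Prdm1, the master regulator of plasma cells (0.17 ± 0.058), and Derl3, a factor of endoplasmic reticulum quality control (0.36 ± 0.13). Of the 8 defining plasma cell markers, Prdm1 was below the 20th percentile on 1 array and the others on none. All 8 are also in the list of 23, and all 8 had a higher mean in the knockout. Of these, 6 had an unadjusted p under 0.05 and 0 passed the adjusted threshold. The mean of these 8 markers ran from 7.47 to 7.92 in the knockout and from 7.19 to 7.70 in the wild type. This mean was highest on knockout replicate 5. Wild type replicates 5 and 6 were lowest, at 7.19 and 7.21, against at least 7.38 on the other wild type arrays. Jchain is among these 8 markers. Of the wild type arrays, replicates 5 and 6 were the lowest in Jchain, Xbp1, Mzb1 and Tnfrsf17. In Prdm1, Irf4, Sdc1 and Derl3 at least 1 of them was not. The part that plasma cell number has in the antibody rows was not tested.

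Factors that act on immunoglobulin promoters and enhancers gave the lowest p-values of the 6 pathway lists, those of Nfil3 itself and Pou2af1. Pou2af1, the B cell coactivator of octamer-binding proteins at immunoglobulin promoters, was at 7.46, 7.17, 7.30, 7.08, 7.76 and 7.50 on knockout replicates 1 to 6 and at 6.58, 6.93, 6.65, 6.44, 7.04 and 6.57 on wild type replicates 1 to 6. The genotypes did not overlap. Wild type replicate 5, lowest in most antibody rows, was the highest wild type array in Pou2af1. Pou2f2, the octamer-binding protein Oct2 itself, differed by 0.25 ± 0.073 log2, and Pou2af1 by 0.68 ± 0.13, with limma adjusted p-values of 0.198 and 0.140. Of the 17 genes, Nfil3 included, 13 were higher and 4 lower, with 4 higher and 1 lower at an unadjusted p under 0.05, 0 past the adjusted threshold and a median difference of 0.06 log2. The 1 lower gene was Nfil3.

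Genes of earlier and later B cell stages did not pass the adjusted threshold. Of 17 tested genes of B cell precursors and the pre-B cell receptor, 14 were higher and 3 lower in the knockout, against 55.9% higher of all transcript clusters, and 4 were higher at an unadjusted p under 0.05, against 8.47%. Their median difference was 0.08 log2. Cd79a, a signalling chain of the B cell receptor, differed by 0.33 ± 0.11 log2. Its signal was low, from 4.94 to 5.68, and below the 20th percentile on 1 array. The brighter Cd79b, at 9.19 on average, differed by 0.22 ± 0.15. Vpreb1, part of the surrogate light chain, differed by 0.26 ± 0.098, and Pax5, the factor that fixes B cell identity, by 0.19 ± 0.075. Of 14 tested mature B cell genes 11 were higher and 3 lower, 4 at an unadjusted p under 0.05, all higher, with a median difference of 0.06 log2. The lowest p-values were those of Fcmr, the IgM receptor (0.21 ± 0.054), Tnfrsf13c, the receptor of the survival factor BAFF (0.19 ± 0.061), and Fcrla (0.21 ± 0.071). The defining mature B cell markers Cr2, Fcer2a and Ms4a1, the CD20 gene, were below the 20th percentile on 12, 9 and 7 of 12 arrays, and the other 12 genes of that list on 0. The mean of the 15 measured mature B cell genes ran from 6.30 to 6.54 in the knockout and from 6.27 to 6.40 in the wild type, and the part of B cells left after depletion in the antibody rows was not tested.

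The enzymes of V(D)J recombination and class switching had small differences. Of 15 tested genes 5 were higher and 10 lower, with 2 lower and 0 higher at an unadjusted p under 0.05, 0 past the adjusted threshold and a median difference of -0.02 log2. The lowest p-values were those of Ung, a uracil glycosylase of class switching (-0.10 ± 0.043), Polm, a polymerase of end joining (-0.09 ± 0.041), and Msh6, of mismatch repair (-0.11 ± 0.054). Rag2 was below the 20th percentile on all 12 arrays. Of 12 genes of antibody receptors and their subunits 11 were higher and 1 lower, with a median difference of 0.11 log2, and only Fcmr had an unadjusted p under 0.05. The next were Trim21, a cytosolic antibody receptor (0.11 ± 0.058), and Fcgr1, the high-affinity IgG receptor (0.08 ± 0.042).

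Markers of other cells were read on the same arrays. Knockout replicate 1, highest in the most antibody rows, was highest in the means of the neutrophil (10.54) and basophil and mast cell lists (10.51). Wild type replicate 5 was lowest in the basophil and mast cell list (8.79, against at least 8.95 on the other arrays). These extremes were not particular to such cells. Knockout replicate 1 was also highest in the B cell precursor (7.22), mature B cell (6.54), plasma cell and antibody secretion (8.97) and NK cell (5.56) lists. Wild type replicate 5 was also lowest in the mature B cell (6.27) and plasma cell and antibody secretion (8.53) lists. T cell genes ran from 6.11 to 6.22 in the knockout and from 6.02 to 6.13 in the wild type, and NK cell genes from 5.32 to 5.56 and from 5.39 to 5.48. The 4 erythroid genes ran from 10.52 to 10.95 and from 10.74 to 11.10, with knockout replicate 1 lowest. Dendritic cell genes ran from 7.41 to 8.31 and from 7.80 to 8.33 in the 2 genotypes, with 4 of 7 higher and 3 lower and, at an unadjusted p under 0.05, 1 higher and 2 lower. Those 3, named after their values were seen, were the progenitor receptor gene Flt3 (0.36 ± 0.11) and the class II genes H2-Aa (-1.34 ± 0.34) and H2-Ab1 (-0.55 ± 0.16), which B cells also express; their limma adjusted p-values were 0.214, 0.173 and 0.205. The 6 stem and progenitor genes all had a higher mean in the knockout, 4 of them at an unadjusted p under 0.05, against 55.9% and 8.47% of all transcript clusters, and their mean was highest on knockout replicate 1 (9.26) and ran from 8.88 to 9.10 in the wild type. The part of these cells in the antibody rows was not tested.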

How the data were processed

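The authors deposited log2 levels of 34760 transcript clusters, normalised by RMA16 in GeneSpring GX (version 11) according to the design text; the log2 scale was read from the range, 3.18 to 14.33. RMA brings arrays toward one distribution, which would hide a shift shared by most genes, and the sources used here do not give the probe build. Platform annotation named the rows, and RefSeq (GRCm38.p6) found 31 of 32 named genes. Rows reaching the 20th percentile of an array at least once were kept, 29541 in all. Knockout minus wild type was fitted with limma 3.58.1 in R 4.3.3 (lmFit, eBayes, no covariate; tested on simulated data), adjusted by Benjamini-Hochberg over all rows at 0.05. Single values also had a two-sided exact permutation test over 924 arrangements, whose smallest p is 0.00216. For listed genes the brightest row naming that gene alone was used.

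Members and lists were chosen with earlier results of these data known. The rule named each constant region row, the variable rows of lowest p, of highest level and of the widest gap to the next array, and, in each list, 3 genes of lowest p beside Nfil3, Pou2af1 and Jchain; the other variable rows are named so that each member is accounted for. Alternatives were the filter, normalisation, variance model, array weights, replicate block, rows naming 1 gene and left-out arrays.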

Additional observations from a re-analysis of the deposited data

Results flagged for a closer look

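Single arrays were compared with the other arrays of their genotype by Dixon's ratio of gap to range. Among 70 such groups of 6 arrays, 5 exceeded the critical value, and about 3.5 would by chance. Igha (10403034) was at 12.70 in knockout replicate 1, and the next knockout array was at 8.97. Ighv3-6/Igha was at 5.58 in knockout replicate 5, with the next at 6.77. Igkv4-59/Igkv4-80 was at 6.74 in knockout replicate 6, with the next at 7.41, and Igkv8-30 was at 5.67 in knockout replicate 2, with the next at 6.59. Outside the antibody rows, Nfil3 was at 7.66 in wild type replicate 1, with the next wild type array at 7.18.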

How the results depend on the processing

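The count of 0 immunoglobulin rows past the adjusted threshold held under each alternative fitted, with a smallest adjusted p of 0.141. With the replicate block, 10 rows rather than 5 had an unadjusted p under 0.05, against 17.4% of all transcript clusters, and 0 passed the adjusted threshold. Deviations of same-numbered arrays correlated from -0.03 to 0.46, the highest for replicate 1. Of the 6 knockout arrays, 3 correlated best with the wild type array of their own number. These values do not settle whether same-numbered arrays are pairs. The sample titles number the arrays without naming pairs, so the main fit used no block. Leaving out the rows naming several genes removed 16 rows and every heavy chain variable row; of the 15 left, 12 were higher, 3 had an unadjusted p under 0.05, 5 were highest in knockout replicate 1 and 9 were lowest in wild type replicate 5. With single arrays left out, 3 to 8 rows were at an unadjusted p under 0.05 and 22 to 28 were higher, with medians of 0.24 to 0.59 log2 for all rows and for the 19 rows naming Igkv, those with Igkc included, and of -0.022 to 0.49 for heavy chain variable rows. Of 31 rows 23 kept their sign under all alternatives and 8 did not. Of the 8, Igkv4-59/Igkv4-80 was at -0.014 after quantile normalisation, -0.038 after median centring and -0.022 with array weights. Igkv5-43 was at 0.058 with array weights and 0.13 without both arrays numbered 1, where Igha (10403034) was at -0.17 and Igha/Ighv1-33 at -0.15; the latter was at -0.076 with array weights. Leaving out 1 array gave -0.12 to 0.17 for Igkv4-59/Igkv4-80, -0.26 to 0.23 for Igkv5-43, -0.092 to 0.81 for Igha (10403034), -0.22 to 0.49 for Igha/Ighv1-33, -0.30 to 0.12 for the row 10403015, -0.43 to 0.13 for Igkv6-14/Igkv6-15, -0.044 to 0.33 for Igkv6-20 and -0.0070 to 0.56 for the row 10545196. The cause was not tested. The share of all transcript clusters higher in the knockout was 55.9%, and 40.4% after median centring, where 25 of 31 antibody rows were higher. Counts of rows by spread were recomputed with alternatives chosen after seeing the data. Low signal limited 4 rows, each below the 20th percentile on 1 array.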
